A study of Mus musculus with 24 samples.

Results

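The T cell genes Cd3d, Cd3e, Cd3g, Lck, Cd4, Cd8a, Cd28, Thy1, Cd6 and Cd5 were followed in RNA from CD11b+ cells of mouse spleen and bone marrow. They were taken by symbol from the non-control probes of Agilent single-colour expression arrays, where the 10 genes had 13 of 39429 probes among 32451 measured genes and transcripts. The study asked how CD11b+ myeloid cells from each organ differ after myocardial infarction (MI) and without histamine or STAT6. Each array held RNA pooled from 5 mice labelled male, of Balb/C background and 10 weeks old, and was the only array of its condition. The conditions were wild-type (WT) mice, mice without histidine decarboxylase, the enzyme that makes histamine (HDC-KO), and mice without the transcription factor STAT6 (STAT6-KO), each as controls or 1, 2 or 4 weeks after MI, in both tissues. Of 24 arrays 22 were used, 11 from spleen and 11 from bone marrow. The HDC-KO spleen control and the STAT6-KO bone marrow sample 1 week after MI were not analysed here because their files held too few spots. With 1 pool per condition there were no biological replicates. The p-values therefore measure the spread over time points, over genotypes (in the tests of time) or over pairs of arrays. Every level below is the log2 signal minus the 75th percentile of its own array, so 0 means a signal equal to that percentile.

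T cells detect antigen with the T cell receptor, which signals through the CD3 chains encoded by Cd3d, Cd3e and Cd3g and through the kinase LCK. CD4 and CD8 are coreceptors that bind MHC molecules, CD28 gives the costimulatory signal, CD5 and CD6 are related scavenger-receptor proteins that tune receptor signalling, and THY1 is a surface glycoprotein of mouse T cells. CD11b, encoded by Itgam, marks granulocytes, monocytes and macrophages, whereas the spleen holds dense T cell zones and bone marrow holds few mature T cells. Some members are not limited to T cells in mice, since subsets of dendritic cells carry CD4 or CD8 and a subset of B cells carries CD5.

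The CD3 genes are shown by sequence because Cd3d ran against Cd3e and Cd3g in the results although the genes are neighbours. In GRCm38.p6 Cd3g lies at chr9:44969572-44980431 on the minus strand and Cd3d at chr9:44981769-44987052 on the plus strand, with 1337 bases and no annotated gene between them. Cd3e follows at chr9:44998735-45009663 on the minus strand, 11682 bases from Cd3d. RefSeq promoter windows of 300 bases, 250 before the start site and 50 after it, were at hand for 6 of the 10 members, and those of the CD3 genes read as follows, with motif matches in capitals.
Cd3d, chr9:44981536-44981835, plus strand: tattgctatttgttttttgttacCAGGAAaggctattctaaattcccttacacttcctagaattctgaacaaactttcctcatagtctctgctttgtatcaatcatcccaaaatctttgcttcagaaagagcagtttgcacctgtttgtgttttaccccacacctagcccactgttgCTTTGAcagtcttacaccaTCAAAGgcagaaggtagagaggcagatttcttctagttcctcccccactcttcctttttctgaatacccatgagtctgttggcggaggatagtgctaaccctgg
Cd3e, chr9:45009562-45009861, minus strand: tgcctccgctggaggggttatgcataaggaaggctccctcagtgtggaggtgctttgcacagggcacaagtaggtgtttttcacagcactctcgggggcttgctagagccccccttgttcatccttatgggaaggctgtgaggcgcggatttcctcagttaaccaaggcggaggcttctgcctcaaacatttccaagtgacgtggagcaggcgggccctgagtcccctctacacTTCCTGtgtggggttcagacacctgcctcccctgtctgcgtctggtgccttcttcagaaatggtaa
Cd3g, chr9:44980382-44980681, minus strand: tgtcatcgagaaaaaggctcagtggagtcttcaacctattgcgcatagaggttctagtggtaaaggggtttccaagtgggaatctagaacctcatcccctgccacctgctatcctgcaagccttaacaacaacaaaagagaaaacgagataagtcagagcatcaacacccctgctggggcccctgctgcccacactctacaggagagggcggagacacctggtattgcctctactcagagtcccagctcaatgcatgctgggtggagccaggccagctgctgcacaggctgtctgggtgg
The motifs searched on both strands were the RUNX core TGTGGT, the ETS core CAGGAA and the TCF/LEF core CTTTGA, the binding letters of factor families that act in lymphocytes. Cd3d held 1 ETS core, at -227 from the start site, and 2 TCF/LEF cores, at -73 and -54. Cd3e held 1 ETS core, on the opposite strand at -16, and Cd3g held no match. Among 32851 promoter windows 16.8% held the RUNX core, 30.6% the ETS core and 16.0% the TCF/LEF core. These matches describe the letters in the windows only.

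Before the comparisons, the arrays were checked against their labels. The signal at the 75th percentile ranged from 928 to 2461 over the 11 spleen arrays and from 963 to 1780 over the 11 bone marrow arrays. On each array 70.4% to 79.8% of spots were well above background. The Hdc level lay between 1.67 and 2.78 on the 7 HDC-KO arrays and between 4.32 and 5.51 on the 8 WT arrays. The brightest Stat6 probe lay between 1.76 and 2.44 on the 7 STAT6-KO arrays and between 2.38 and 3.70 on the WT arrays. These ranges overlapped, as did those of the other Stat6 probes. Although all mice were labelled male, a probe for Xist, which silences an X chromosome in females, passed the background test on 7 of 7 HDC-KO arrays, on 0 of 8 WT arrays and on 2 of 7 STAT6-KO arrays, the latter being the controls of both tissues. The other Xist probe passed on 7, 5 and 6 arrays of HDC-KO, WT and STAT6-KO. Itgam was well above background on every array used, between 3.52 and 5.85.

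The members were present in both tissues, and most were far higher in the spleen preparations. The 10 members, each by its brightest probe, were well above background on all 22 arrays. Of the members 8 were higher in spleen, with Cd3g, Cd5, Thy1, Lck and Cd8a each more than 8-fold higher, Cd3d was lower in spleen, and Cd4 did not pass the test. Across all genes the tissues differed widely: limma called 54.5% of 27659 genes over the 10 pairs of spleen and bone marrow arrays of the same genotype and time, 22.4% higher in spleen and 32.1% higher in bone marrow. The median difference, spleen minus bone marrow, was 2.59 log2 units over the 10 members and -0.17 over all genes. In bulk RNA, fewer T cells in a preparation and less T cell RNA per cell cannot be told apart.

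**Figure D1:**
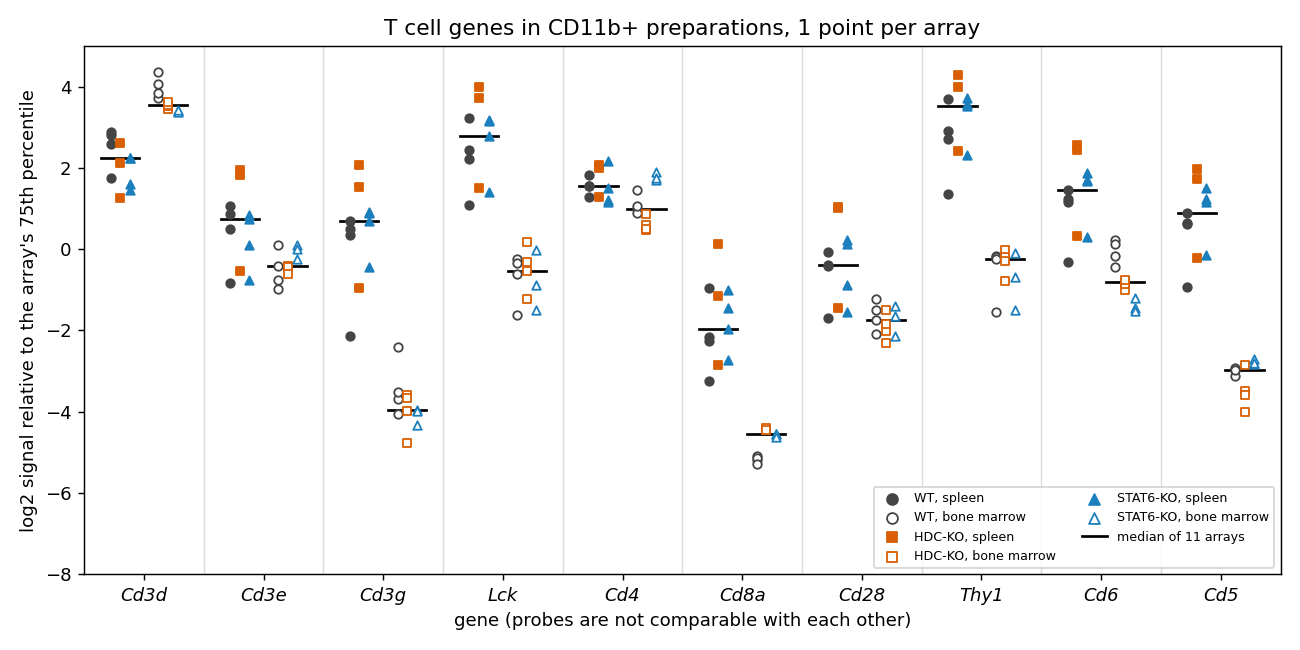
Levels of the 10 members on each of the 22 arrays, as log2 signal relative to the 75th percentile of the array, with filled symbols for spleen, open symbols for bone marrow, shapes and colours for genotype and bars for the median of 11 arrays. The spleen and bone marrow arrays do not overlap for Cd3d, Cd3g, Lck, Cd8a, Thy1 and Cd5, and Cd3d is the member with the bone marrow arrays on top.

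The CD3 chains went different ways. Cd3g, the gamma chain, ranged in spleen from -2.14 in WT mice 1 week after MI to 2.06 in HDC-KO mice 2 weeks after MI, with a median of 0.70, and in bone marrow from -4.78 to -2.40, with a median of -3.97. The groups did not overlap, and Cd3g was higher in spleen by 4.29 ± 0.36 log2 units (SE, 10 pairs, limma adjusted p = 1.91e-06), a 19.6-fold difference. Cd3e, the epsilon chain, ranged from -0.84 to 1.94 in spleen, with a median of 0.74, and from -0.99 to 0.09 in bone marrow, with a median of -0.42. These ranges overlapped, and the smaller difference of 1.02 ± 0.31 (limma adjusted p = 0.0156) was positive in 8 of 10 pairs. Cd3d, the delta chain, ranged from 1.25 to 2.88 in spleen, with a median of 2.23, and from 3.38 to 4.37 in bone marrow, with a median of 3.55. Every bone marrow array lay above every spleen array, and Cd3d was lower in spleen in 10 of 10 pairs, by -1.50 ± 0.15 (limma adjusted p = 5.94e-06). Each CD3 gene was read by a single probe, so no other probe could be set beside these values. The sequence of the Cd3d probe was not at hand, and whether its signal came from Cd3d alone was not tested, so the Cd3d values are those of the probe annotated to this gene.

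Lck and Thy1, both prominent in mature T cells, were among the members with the widest separation. Lck ranged from 1.09 to 4.00 in spleen and from -1.62 to 0.17 in bone marrow, with medians of 2.79 and -0.53. Thy1 ranged from 1.36 to 4.28 in spleen and from -1.56 to -0.01 in bone marrow, with medians of 3.53 and -0.25. The tissue groups of these genes did not overlap, with differences of 3.46 ± 0.21 for Lck (limma adjusted p = 2.09e-07) and 3.79 ± 0.22 for Thy1 (limma adjusted p = 1.56e-07). Cd5 ranged from -0.92 to 1.97 in spleen and from -4.01 to -2.70 in bone marrow, and was higher in spleen by 4.00 ± 0.27 (limma adjusted p = 4.06e-07). Of the members, 6 did not overlap between tissues, against 13.2% of 27727 genes.

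Among the coreceptor genes, Cd8a and Cd4 differed. Cd8a, read by a probe printed in 10 spots, ranged from -3.25 to 0.13 in spleen and from -5.28 to -4.41 in bone marrow, and was higher in spleen by 3.08 ± 0.26 (limma adjusted p = 1.87e-06). Its other probe was also higher in spleen, by 1.76 ± 0.24 (limma adjusted p = 6.88e-05), although its tissue ranges overlapped. Cd4 ranged from 1.17 to 2.16 in spleen and from 0.48 to 1.89 in bone marrow, and its difference of 0.47 ± 0.21 did not pass (limma adjusted p = 0.0754, 95% interval 0.02 to 0.93). The other Cd4 probe was higher in spleen by 0.84 ± 0.23 (limma adjusted p = 0.0083), so the call on Cd4 depended on the probe. The costimulatory receptor gene Cd28 was higher in spleen by 1.45 ± 0.29 (limma adjusted p = 0.00128, 9 of 10 pairs). Cd6 ranged from -0.33 to 2.57 in spleen and from -1.53 to 0.23 in bone marrow and was higher in spleen by 2.10 ± 0.38 (limma adjusted p = 0.000533), but its other probe did not differ in the same test (-0.01 ± 0.37, adjusted p = 0.981). An exact sign-flip test over the 10 pairs, two-sided, gave its smallest possible p, 0.00195, for Cd3d, Cd3g, Lck, Cd8a, Thy1 and Cd5, with 0.00391 for Cd28 and Cd6, 0.0234 for Cd3e and 0.0645 for Cd4. The spleen arrays lay on 3 slides and the bone marrow arrays on 3 others, so tissue and slide cannot be told apart, and pairs of a genotype share their slides, which the tests over 10 pairs do not account for.

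Other genes of the T cell programme were read from lists chosen with earlier results of these data known. Of 15 genes of T cell receptor signalling 14 were higher in spleen and 1 was lower, with a median difference of 2.64. Trat1 rose by 4.66, Skap1 by 4.42 and Txk by 3.91, whereas Ubash3a, a phosphatase-like inhibitor of receptor signalling, was lower in spleen (-1.24). Ubash3a and, among the factors below, Satb1 were named after their values were seen, as the exceptions in direction. Of 11 T cell surface genes 10 were higher, led by the costimulatory receptor gene Icos at 5.16, the chemokine receptor gene Ccr7 at 3.71 and the adhesion gene Cd2 at 3.70. Of 8 T lineage transcription factors 7 were higher, led by Tcf7 at 4.68, Gata3 at 3.98 and Tbx21 at 3.76, and the chromatin organiser Satb1 was lower (-0.65). Among markers of other cells, 8 of 10 B cell genes were higher and 1 was lower, and 7 of 10 NK cell genes, 7 of 9 dendritic cell genes and 5 of 6 plasma cell genes were higher. Of the erythroid genes 2 of 6 were higher, with a median of -0.10. Of 10 tested CD11b+ myeloid genes 8 were lower in spleen, Itgam by -1.47, and 1 was higher. On a linear scale with the 75th percentile as the unit, the summed signal of the 10 members was 15.7 to 66.5 in spleen and 16.1 to 26.6 in bone marrow, so the tissues overlapped and the lowest spleen array, WT at 1 week, lay below every bone marrow array. This sum weights the brightest probes most, and in bone marrow the Cd3d probe was the brightest, at 3.38 to 4.37 on the log2 scale. The next highest member there, Cd4, lay at 0.48 to 1.89. The overlap and this order of the arrays do not hold without Cd3d, which lay at 2.59 on the WT spleen array of 1 week. By the levels of the other members, every spleen array then sums to more than every bone marrow array. The summed signal of the 10 B cell genes was 24.5 to 93.8 in spleen and 4.83 to 34.5 in bone marrow, and that of the 10 NK cell genes was 6.44 to 40.4 and 4.72 to 7.46. The summed signal of the myeloid genes was 194 to 355 in spleen and 296 to 465 in bone marrow. The part of these other cells in the T cell gene differences was not tested.

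In spleen the members rose and fell with each other from array to array, with the exception of Cd3d. Over the 11 spleen arrays, Pearson's r between pairs of members other than Cd3d ran from 0.45 to 0.99 with a median of 0.90 (36 pairs), while the 9 pairs with Cd3d ran from -0.03 to 0.42. Over the 11 bone marrow arrays the 36 pairs without Cd3d ran from -0.83 to 0.95 with a median of -0.02. The highest bone marrow value, 0.95, was that of Lck with Thy1. These values describe arrays that share slides, time points and scaling, and no test was made of them.

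**Figure D2:**
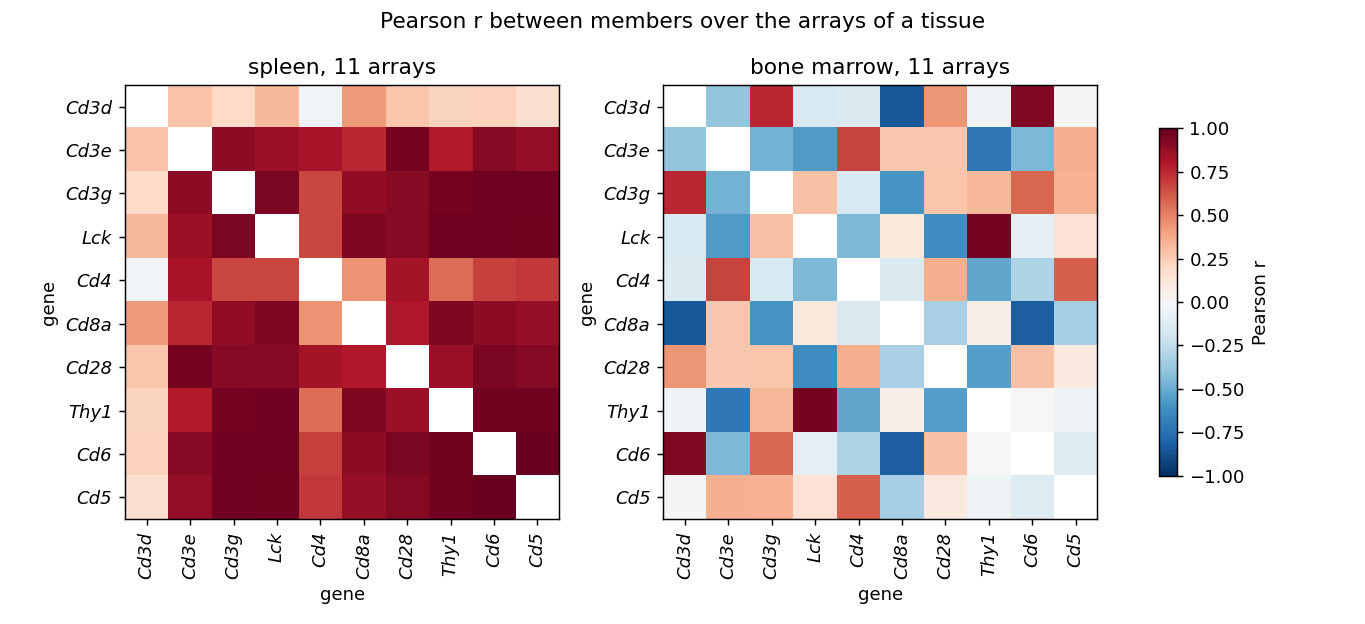
Pearson's r between each pair of members over the 11 spleen arrays (left) and the 11 bone marrow arrays (right), with both axes listing the genes and the colour scale running from -1 to 1. In spleen all pairs without Cd3d are at 0.45 or above, while in bone marrow positive and negative values are mixed, with a median of -0.04 over all 45 pairs.

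Over the 22 arrays, the 10 genes whose levels were most like the mean of the 3 centred CD3 levels, of 16642 ranked, were Cd8b1 (r = 0.94), Cpne7 (0.93), Tox (0.93), Plcg1 (0.92), Tyro3 (0.92), Ppp1r16b (0.92), S1pr1 (0.91), Sidt1 (0.91), Tut4 (0.91) and Rab3ip (0.91). Cd8b1 encodes the CD8 beta chain, Tox a nuclear factor of T cell development, Plcg1 a phospholipase of receptor signalling and S1pr1 the receptor that lets lymphocytes leave lymphoid organs. The CD3 mean includes Cd3d, which ran against Cd3e and Cd3g between the tissues, and r over the 22 arrays includes the tissue difference. Within the 11 spleen arrays r ran from 0.83 for Sidt1 to 0.95 for Tut4. Within the 11 bone marrow arrays it was 0.67 for Plcg1, 0.63 for Cpne7, 0.61 for Sidt1 and 0.59 for Tut4, and between -0.06 for Tox and 0.30 for Tyro3 for the others.

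In spleen the members were lowest 1 week after MI. In all, 8 of the 10 members, all but Cd3d and Cd4, had their lowest level at 1 week in each of the 3 genotypes, including WT and STAT6-KO mice, whose controls were measured. The share of all genes with this pattern is not given here. Cd3g in WT mice stood at 0.35 in the control, -2.14 at 1 week, 0.70 at 2 weeks and 0.50 at 4 weeks. In STAT6-KO mice it stood at 0.88, -0.43, 0.70 and 0.91, and in HDC-KO mice, without a control array, at -0.95, 2.06 and 1.54. The level at 2 weeks was above that at 1 week on each of the 3 spleen slides. A fall from the control could be read on the WT and STAT6-KO slides only. In STAT6-KO mice the control was also the only spleen array passed by the Xist probe that passed on 0 of 8 WT arrays. The fall and the signal of this probe cannot be told apart. The other Xist probe passed on 6 of 7 STAT6-KO arrays. Lck in WT mice stood at 2.22 in the control, 1.09 at 1 week, 3.22 at 2 weeks and 2.44 at 4 weeks, and in STAT6-KO mice at 2.79, 1.41, 3.14 and 3.19.

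**Figure D3:**
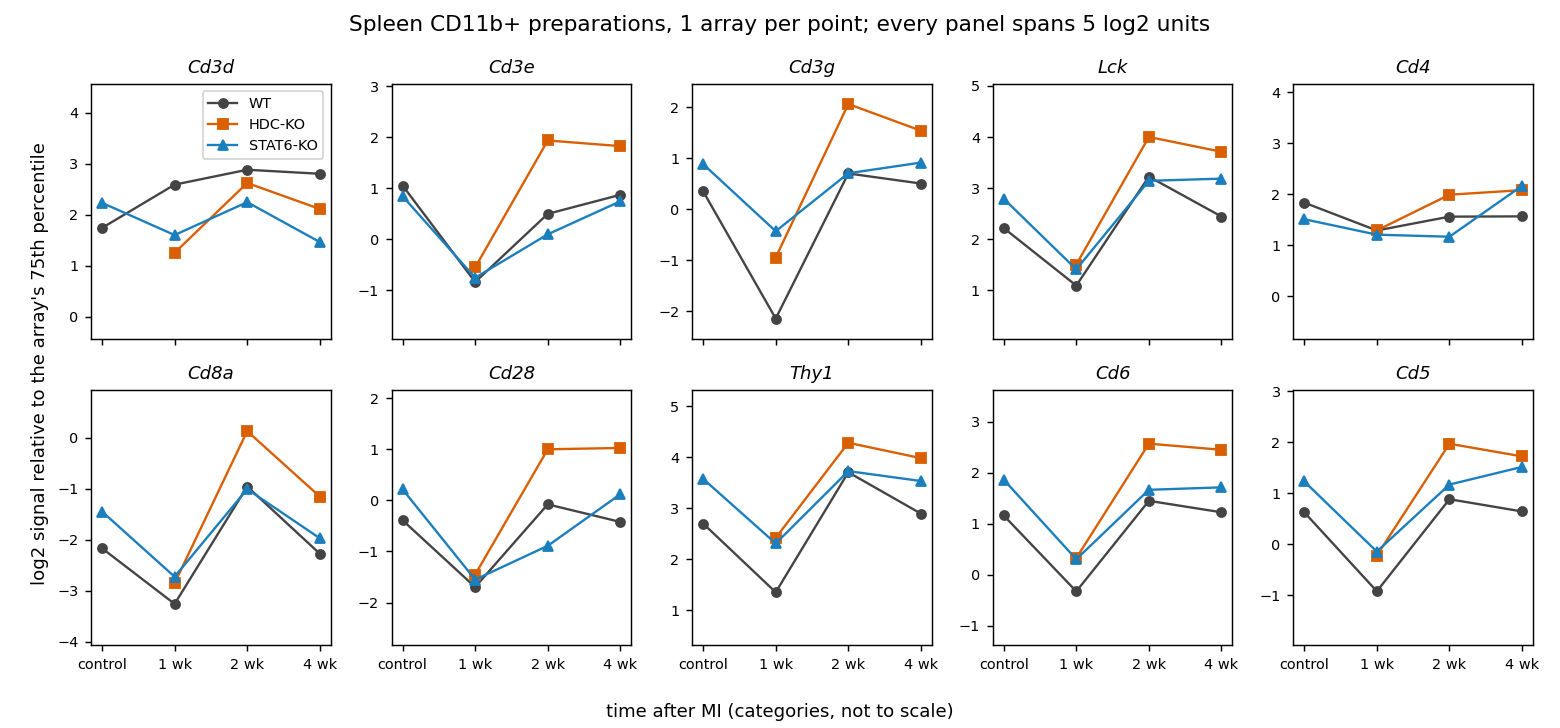
Levels of the 10 members in spleen by time after MI, with 1 array per point, 1 line per genotype, the log2 signal relative to the 75th percentile on the vertical axis and the same 5-unit span in every panel. The 8 members other than Cd3d and Cd4 are lowest at 1 week in all 3 genotypes, and the HDC-KO control is missing.

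A comparison of 1 week with the mean of the other times, with genotype as a term, was added after these values were seen, so its p-values are not independent of the pattern. In spleen limma called 14.0% of 26472 genes, and 8 of 10 members were lower at 1 week. The median difference was -1.70 over the members and -0.12 over all genes. The differences were -2.19 ± 0.28 for Cd3g (limma adjusted p = 0.005), -1.80 ± 0.23 for Cd3e (0.00493), -1.76 ± 0.18 for Lck (0.00407), -1.73 ± 0.29 for Cd28 (0.011) and -1.72 ± 0.16 for Cd6 (0.004). They were -1.69 ± 0.16 for Cd5 (0.004), -1.62 ± 0.21 for Cd8a (0.00489) and -1.55 ± 0.17 for Thy1 (0.00418). The values that did not pass were -0.50 ± 0.19 for Cd4 (0.119) and -0.39 ± 0.29 for Cd3d (0.402). The other probes of Cd8a and Cd6 were also lower at 1 week, by -2.42 ± 0.36 (0.0072) and -1.53 ± 0.18 (0.00466). Without the WT arrays, without the HDC-KO arrays, without the 4-week arrays, with another background correction (normexp) and with no genotype term the count of called members was 0, while Cd3g stood at -1.93 without WT, at -1.96 without HDC-KO and at -1.96 with normexp.

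Other lymphocyte genes were also lower in spleen at 1 week. At 1 week 10 of 15 T cell receptor signalling genes, 9 of 10 tested T cell surface genes and 6 of 8 T lineage transcription factors were lower. So were 9 of 10 B cell genes (median -1.16) and 7 of 10 NK cell genes (median -1.14), while 0 of 6 plasma cell genes passed and 2 of 10 myeloid genes were higher. Of the dendritic cell genes 1 of 9 was lower (median 0.07). The 6 erythroid genes tested had differences of 0.53 to 1.11 (median 0.71), and 0 passed. The share of spots well above background was lowest on the WT arrays of 1 week, 70.4% in spleen and 71.3% in bone marrow, against 77.7% and 75.7% on the HDC-KO and STAT6-KO spleen arrays of 1 week. The summed signal of the 10 T cell members was 15.7 to 16.9 on the 3 spleen arrays of 1 week and 26.2 to 66.5 on the other 8. Those of the B cell genes were 24.5 to 37.1 and 28.1 to 93.8, and those of the myeloid genes were 224 to 305 and 194 to 355. The part of these other cells and of array quality was not tested. Time point and position on the slide coincided, so they cannot be told apart.

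In bone marrow limma called 0.794% of 27089 genes at 1 week against the other times, and 0 of 10 members were among them. At an unadjusted p under 0.05 there were 3 members and 5060 of the 27089 genes. Lck and Thy1 had their lowest level at 1 week in both genotypes measured. In WT bone marrow Lck stood at -0.25 in the control and at -1.62, -0.33 and -0.60 at 1, 2 and 4 weeks, and in HDC-KO bone marrow at 0.17, -1.22, -0.31 and -0.53. The differences of -1.11 ± 0.38 for Lck (limma adjusted p = 0.194) and -0.99 ± 0.33 for Thy1 (0.193) did not pass. Other T cell genes were lower at 1 week in bone marrow, with 3 of 10 tested surface genes, Cd2 (-2.46), Il7r (-2.68) and Ccr7 (-1.87), and 2 of 15 receptor signalling genes, Fyn (-1.58) and Grap2 (-1.52), where Il7r, Fyn and Grap2 were named after their values were seen. The medians were -0.59 for the surface genes and -0.36 for the signalling genes. Of the B cell genes 4 of 10 were lower too, and their summed signal was 4.83 to 8.19 on the 2 arrays of 1 week and 8.73 to 34.5 on the other 9. In STAT6-KO bone marrow, with no array at 1 week, Lck stood at -1.51 in the control, -0.89 at 2 weeks and -0.03 at 4 weeks.

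**Figure D4:**
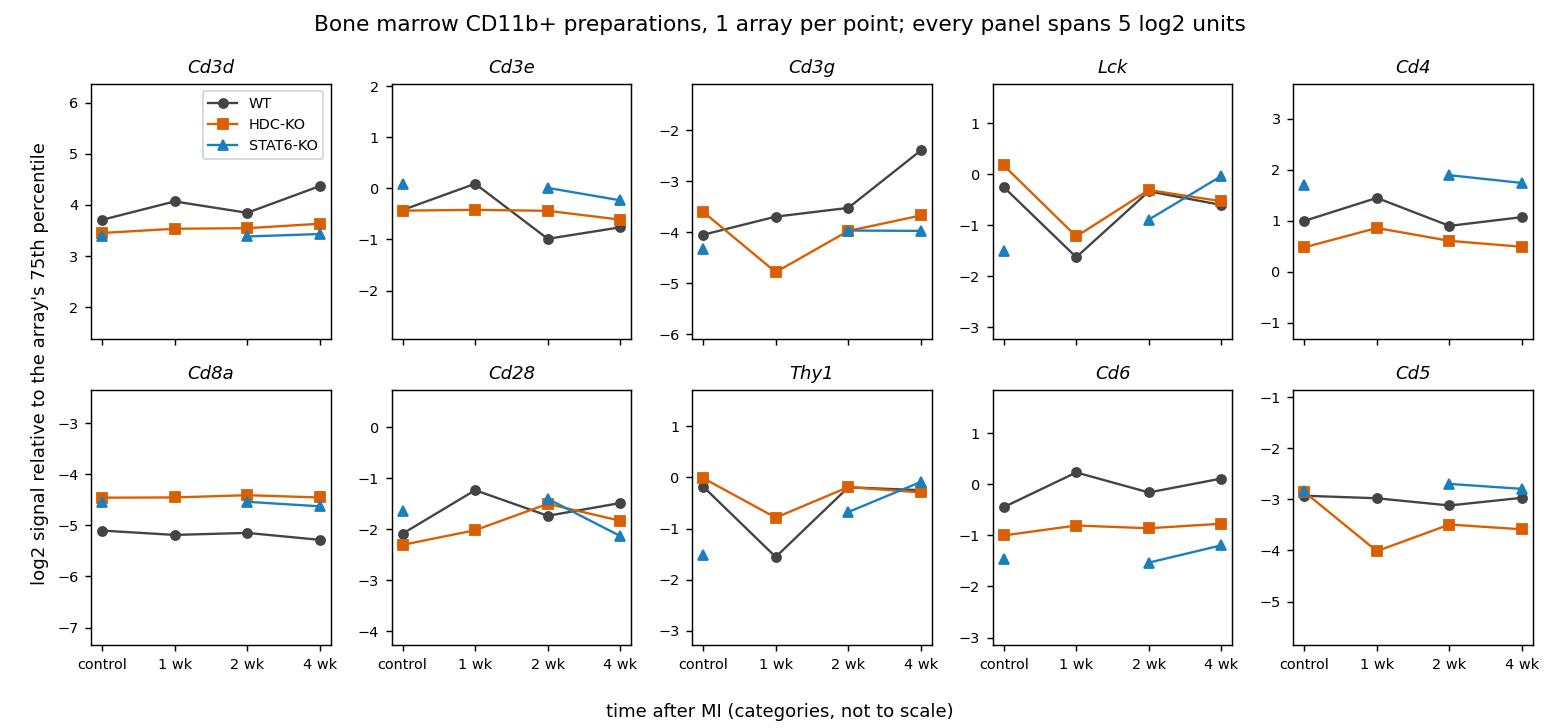
Levels of the 10 members in bone marrow by time after MI, drawn as for spleen, with the STAT6-KO array of 1 week missing. Lck and Thy1 are lowest at 1 week in WT and HDC-KO mice, whereas Cd8a is lowest in WT mice at every time.

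When all times after MI were pooled against the controls, 0 members passed in either tissue. In spleen limma called 0.00378% of 26472 genes, which is 1 gene. An unadjusted p under 0.05 was found for 4167 of the 26472 genes and for 2 members, Cd3e (-0.85 ± 0.27, adjusted p = 0.226) and Cd6 (-0.51 ± 0.19, adjusted p = 0.273). In bone marrow limma called 0% of 27089 genes. No member had an unadjusted p under 0.05 there, against 4530 of the 27089 genes. This comparison averages the low values of 1 week with those of 2 and 4 weeks. In STAT6-KO mice the Xist probe that passed on 0 of 8 WT arrays passed the background test on the controls only. Control status and the signal of this probe therefore cannot be told apart in that genotype. The other Xist probe passed on 6 of 7 STAT6-KO arrays.

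Between genotypes, spleen preparations from HDC-KO mice held higher levels of some members than those of WT mice. limma called 2.80% of 26472 genes, and of the members Thy1 (0.95 ± 0.19, adjusted p = 0.0446), Cd6 (1.03 ± 0.19, adjusted p = 0.0353) and Cd5 (0.95 ± 0.18, adjusted p = 0.0391) were higher, close to a doubling. The median difference was 0.94 over the 10 members and 0.06 over all genes. At 1, 2 and 4 weeks Cd6 stood at 0.33, 2.57 and 2.45 in HDC-KO spleen and at -0.33, 1.45 and 1.22 in WT spleen, so HDC-KO lay above WT at each time. Of the members 9 were higher in HDC-KO at all 3 times (Cd4 at 1 week by a margin below its second decimal), and Cd3d was lower at all 3. The share of all genes higher at all 3 times is not given here. The differences that did not pass ran from -0.58 ± 0.34 for Cd3d (adjusted p = 0.356) to 1.17 ± 0.32 for Cd3g (adjusted p = 0.0926). Without the arrays of 1 week, of 2 weeks or of 4 weeks 0 members passed, and without the WT and STAT6-KO controls 2 did. Of the other T cell lists, 3 of 15 receptor signalling genes, 1 of 10 surface genes and 2 of 8 transcription factors were higher in HDC-KO spleen, with medians of 0.79, 0.88 and 0.87. B cell genes had a median difference of 0.44 and NK cell genes of 0.19, with 0 of 10 passing in each, and 1 of 10 myeloid genes was lower (median -0.31). Genotype, slide and the Xist signal coincided in HDC-KO against WT and cannot be told apart.

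**Figure D5:**
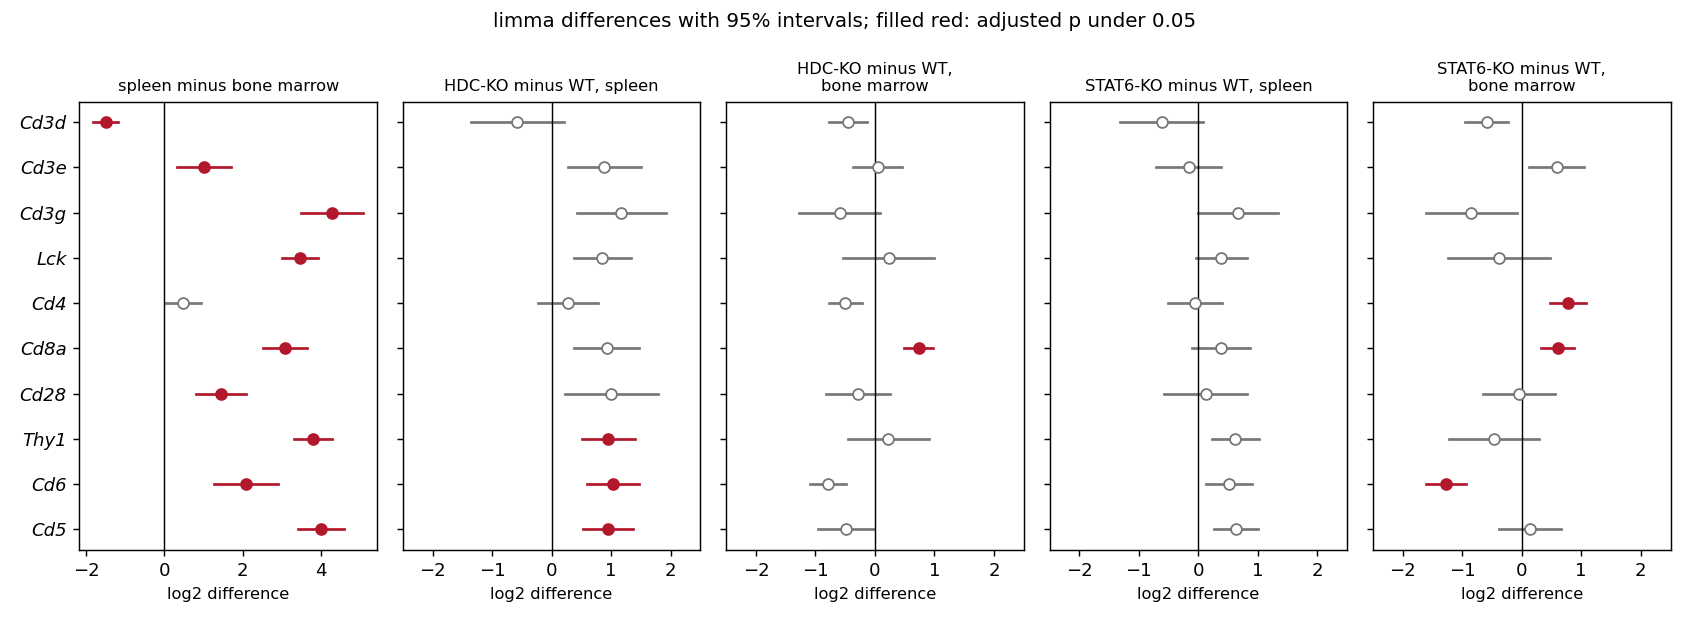
limma differences of the 10 members with 95% intervals on a log2 scale, for spleen minus bone marrow (10 pairs) and for each knockout minus WT within each tissue (11 arrays), with filled red points for an adjusted p under 0.05. The 8 called members other than Cd3d lie to the right in the tissue panel and Cd3d to the left, and in the HDC-KO spleen panel Thy1, Cd6 and Cd5 pass.

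In bone marrow HDC-KO and WT differed at 0.443% of 27089 genes, and Cd8a was the member that passed, at 0.74 ± 0.10 (limma adjusted p = 0.0454). Its levels were -4.46 to -4.41 on the 4 HDC-KO arrays and -5.28 to -5.10 on the 4 WT arrays, so the groups did not overlap. The other Cd8a probe gave 1.27 ± 0.32 (adjusted p = 0.135), and without the arrays of any 1 time point Cd8a no longer passed. Cd6 and Cd4 were lower in HDC-KO at all 4 times (-0.80 ± 0.13, adjusted p = 0.0648, and -0.50 ± 0.11, adjusted p = 0.121) but did not pass. The HDC-KO difference was larger in spleen than in bone marrow for 3 members when this was tested directly on the differences of the pairs, a comparison that called 1.78% of 27659 genes. Spleen exceeded bone marrow by 2.08 ± 0.32 for Cd3g (limma adjusted p = 0.033), 1.88 ± 0.20 for Cd6 (adjusted p = 0.0169) and 1.65 ± 0.24 for Cd5 (adjusted p = 0.0285). Without the WT and STAT6-KO controls only Cd6 passed of these, and without the arrays of any other time point none did.

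In STAT6-KO mice no member passed in spleen, where limma called 1.95% of 26472 genes and the median was 0.38 over the members and -0.06 over all genes. Of the members 3 had an unadjusted p under 0.05, as did 6068 of the 26472 genes. They were Thy1 (0.62 ± 0.17, adjusted p = 0.0929), Cd5 (0.64 ± 0.16, adjusted p = 0.0803) and Cd6 (0.51 ± 0.17, adjusted p = 0.132), and each was above WT at all 4 times. The other T cell lists had spleen medians of 0.22 (receptor signalling), 0.62 (surface) and 0.39 (transcription factors). Medians were 0.61 for B cell, 0.90 for plasma cell, 0.54 for erythroid, -0.18 for dendritic cell, -0.26 for myeloid and -0.70 for NK cell genes. Of these lists, 1 of 15 receptor signalling genes and 1 of 10 B cell genes passed, both higher. In bone marrow limma called 4.61% of 27089 genes, and Cd4 and Cd8a were higher in STAT6-KO while Cd6 was lower. Cd4 stood at 1.71, 1.89 and 1.74 in STAT6-KO bone marrow (control, 2 and 4 weeks) and at 0.99, 0.90 and 1.07 in WT, a difference of 0.77 ± 0.13 (adjusted p = 0.0208). Its other probe gave 0.00 ± 0.24 (adjusted p = 0.994). Cd8a differed by 0.61 ± 0.12 (adjusted p = 0.034), with its other probe at -0.23 ± 0.36 (adjusted p = 0.739). Cd6 stood at -1.46, -1.53 and -1.19 in STAT6-KO and at -0.45, -0.16 and 0.11 in WT, a difference of -1.27 ± 0.15 (adjusted p = 0.00599), with its other probe at 0.08 ± 0.50 (adjusted p = 0.947). So each of these 3 calls rested on the brighter probe of its gene. Of other lists in STAT6-KO bone marrow, 2 of 6 plasma cell genes and 1 of 10 NK cell genes were higher and 1 of 10 B cell genes was lower. Without the control, 2-week or 4-week arrays 0 members passed.

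The STAT6-KO difference departed between tissues for 1 member in a comparison that called 1.20% of 27659 genes. For Cd6 the difference was larger in spleen than in bone marrow by 1.67 ± 0.20 (limma adjusted p = 0.0309), but its other probe gave -0.78 ± 0.58 (adjusted p = 0.526) and it did not pass without the arrays of any 1 time point.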

How the data were processed

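The authors labelled RNA with Cy3, hybridised it to Agilent mouse 4x44K arrays and scanned them, and the deposited files hold Feature Extraction 11.0.1.1 output, 1 array per file. The values used are the processed signal intensity per spot, which per the file headers is background-subtracted, in linear units. Here outlier spots (3055) were left out, spots of a probe were averaged, and log2 intensity minus the array's 75th percentile was taken. A gene was read by its brightest probe over the 22 arrays, and a gene entered a fit if its probe passed the scanner's background test on at least 2 of the fit's arrays. limma 3.58.1 (R 4.3.3) with Benjamini-Hochberg adjustment over all genes tested was used, with an adjusted p of 0.05 as the threshold. Tissue was tested within 10 pairs of genotype and time, genotype with time as a term, and time with genotype as a term. In the pairs, genotype and time are shared by design, with no shared animals stated. Genes were named through the files and RefSeq (27234 of 39429 probes). The rule was to name all members, up to 3 leading genes of each marker list by the tissue difference, and the 10 genes most like the CD3 mean. The members and lists were chosen with earlier results of these data known. Scripts were tested on simulated data. Array number, 1 per condition, limits the precision. Each slide held 1 genotype in 1 tissue, so slide cannot be told apart from genotype or tissue. Alternatives covered background correction, scaling, filters, probes, model terms, the methods' t-test and left-out arrays. GCRMA, named in the submitters' processing notes, was not used.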

Additional observations from a re-analysis of the deposited data

Results flagged for a closer look

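The HDC-KO minus WT difference departed between tissues for 3 members by a limma test on the paired differences. It was larger in spleen by 2.08 log2 units for Cd3g, by 1.88 for Cd6 and by 1.65 for Cd5. The STAT6-KO minus WT difference departed between tissues for Cd6, by 1.67. Over the alternatives run, the lowest values in HDC-KO were 1.76 for Cd3g, 1.51 for Cd6 and 1.40 for Cd5. The calls did not hold as well: 0 members passed with normexp or genotype alone, and 0 to 1 with 1 time point left out. For Cd6 in STAT6-KO the mean over both probes gave 0.44, and the other Cd6 probe on its own had the opposite direction, -0.78 ± 0.58 (limma adjusted p = 0.526). Genotype, slide and, for HDC-KO, the Xist signal cannot be told apart in these values.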

How the results depend on the processing

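Member values were recomputed in 1890 alternatives: 1754 kept their side of the threshold, 126 lost the call and 10 gained it. The sign changed in 60, of which 0 had a call. Between spleen and bone marrow 9 or 10 members were called throughout, with 15064 genes called, or 6216 by the methods' t-test (fold over 2, unadjusted p). The cause of the following changes was not tested, and the 1-week comparison with all its alternatives was chosen after seeing the data.

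Called members changed as follows. Apart from left-out arrays, changes of a count no larger in proportion than 3 to 2 are not listed. HDC-KO against WT in spleen went from 3 to 0 with normexp, without a time term and by both forms of the methods' t-test, and to 0 to 2 with 1 time point left out. HDC-KO against WT in bone marrow went from 1 to 0 with normexp, median scaling, no filter, the mean over probes, only 2 genotypes in the fit, the fold form of the methods' t-test or any time point left out, and to 2 with only probes above background on every array. STAT6-KO against WT in bone marrow went from 3 to 0 with the mean over probes or only 2 genotypes, to 1 by both forms of the methods' t-test, and to 0 to 2 with 1 time point left out. The HDC-KO difference between tissues went from 3 to 0 with normexp or genotype alone, and to 0 to 1 with 1 time point left out. The STAT6-KO difference between tissues went from 1 to 0 with normexp, the mean over probes, genotype alone or any time point left out. At 1 week in spleen 8 became 0 with normexp or no genotype term, and 0 to 8 with 1 genotype or time left out.

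Calls over all genes moved more, with changes no larger in that proportion again not listed. HDC-KO against WT in spleen (742) gave 6 with normexp, 431 with quantile normalization, 391 with a floor, 301 with probes above background on every array, 2604 with only 2 genotypes, 126 without a time term, 64 by the methods' t-test after Benjamini-Hochberg, and 0 to 1289 with 1 time point left out. STAT6-KO against WT in spleen (517) gave 4 with normexp, 144 with only 2 genotypes, 72 without a time term, 792 and 23 by the fold and Benjamini-Hochberg forms of the methods' t-test, 215 without the STAT6-KO array of 4 weeks (added after seeing the data), and 30 to 964 with 1 time point left out. HDC-KO against WT in bone marrow (120) gave 56, 20, 998 and 28 with normexp, only 2 genotypes and the fold and Benjamini-Hochberg forms, and 3 to 393. STAT6-KO against WT in bone marrow (1248) gave 513 with normexp, 0 with only 2 genotypes, 674 without a time term, 91 by the Benjamini-Hochberg form, and 11 to 1009. MI against control in spleen (1) gave 2 with a floor, 5 with probes above background on every array, 0 with the other 8 changed settings, and 0 to 580. The HDC-KO difference between tissues (492) gave 0 with normexp, 175 with probes above background on every array, 274 with genotype alone, 229 in the unpaired fit, and 0 to 347. The STAT6-KO difference between tissues (331) gave 48 with normexp, 145 with quantile normalization, 96 with genotype alone, 1444 in the unpaired fit, 555 without the STAT6-KO spleen array of 4 weeks, and 0 with any time point left out. At 1 week in spleen 3700 became 0 with normexp, 4 with no genotype term, and 0 to 4551. At 1 week in bone marrow 215 became 1 with normexp, 135 with quantile normalization, 125 with no filter, 1 with no genotype term, and 0 to 223.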
